A study of Mus musculus with 37 samples.

Results

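The endoplasmic reticulum folding genes described here are Hspa5, Hsp90b1, Calr, Canx, Pdia3, Pdia4, Pdia6, Dnajb9, Herpud1 and Xbp1. They were chosen by symbol: every probe set that the platform annotation assigns to 1 of these 10 genes was taken, which gave 22 of the 20380 probe sets naming a single gene, and the 10 genes are 10 of the 12393 genes on the array. Signals came from whole mammary glands of 37 female C57BL/6 mice that were 9 weeks old when the diets began and were followed for 6 weeks. There were 9 calorie restricted mice with wheel access (CR+EX), 9 calorie restricted mice without it (CR), 9 mice fed ad libitum that had wheel access (AL+EX) and 10 fed ad libitum that had none (AL). Restricted mice were given 70% of the calories of AL mice with their other nutrients kept at the AL level, and the left and right thoracic glands of each mouse were pooled into 1 RNA sample and hybridised to 1 Affymetrix array. CR+EX and CR together are called restricted (18 mice) and AL+EX and AL unrestricted (19 mice).

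Secreted and membrane proteins enter the endoplasmic reticulum unfolded. Chaperones such as the Hspa5 product BiP hold them, the lectins calnexin (Canx) and calreticulin (Calr) retain those that carry trimmed sugar chains together with the disulfide isomerase ERp57 (Pdia3), and proteins that fail to fold are sent for degradation. When unfolded proteins accumulate, the sensors IRE1, ATF6 and PERK start the unfolded protein response, in which ATF6 and spliced XBP1 raise transcription of many of these genes through short promoter motifs. In the mammary gland this machinery is best known for its work in milk secreting epithelium and in plasma cells.

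The promoters are shown because some of them hold motifs through which the unfolded protein response is known to act. Use of the motifs in these glands was not tested. The windows were 300 bases long, most of it before each gene's start, as given by RefSeq on GRCm38.p6, and all 10 members had one. The endoplasmic reticulum stress element, ERSE, was searched as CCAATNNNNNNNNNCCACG on both strands, ERSE-II as ATTGGNCCACG and the core of the unfolded protein response element as TGACGTGG. ERSE was found in 5 of the 10 members, against 39 of 32851 windows in all (0.119%), and ERSE-II in 1 of 10, against 12 of 32851 (0.0365%). The motifs were taken as already known from genes of this response, so these shares describe the members and are not a test. Members were counted by gene and the whole set by window. No member's window held both ERSE and ERSE-II. The stretches below run 5′ to 3′ on the strand of the gene, with the fixed letters of the motif in capitals.
Hspa5, chr2:34771995-34772073, + strand: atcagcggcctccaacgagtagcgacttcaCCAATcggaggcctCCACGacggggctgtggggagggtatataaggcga
Hsp90b1, first match, chr10:86705608-86705686, - strand: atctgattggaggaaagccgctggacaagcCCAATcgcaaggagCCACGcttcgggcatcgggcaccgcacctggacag
Hsp90b1, second match, chr10:86705503-86705581, - strand: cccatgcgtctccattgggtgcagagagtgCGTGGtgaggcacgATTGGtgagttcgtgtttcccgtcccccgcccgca
Calr, chr8:84847045-84847123, - strand: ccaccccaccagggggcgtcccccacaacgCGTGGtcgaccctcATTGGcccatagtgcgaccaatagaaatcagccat
Canx, chr11:50325770-50325848, - strand: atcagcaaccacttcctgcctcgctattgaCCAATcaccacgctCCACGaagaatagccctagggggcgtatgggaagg
Pdia6, chr12:17266461-17266539, + strand: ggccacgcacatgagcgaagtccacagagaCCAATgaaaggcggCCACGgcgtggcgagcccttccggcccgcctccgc
Herpud1, ERSE-II, chr8:94386347-94386417, + strand: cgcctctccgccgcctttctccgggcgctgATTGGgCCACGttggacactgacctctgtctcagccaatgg

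The motif lay at -65 to -47 from the start of Hspa5, at -212 to -194 and -107 to -89 in Hsp90b1, at -162 to -144 in Calr, at -145 to -127 in Canx, at -98 to -80 in Pdia6 and at -52 to -42 in Herpud1. The second Hsp90b1 match and the Calr match lie on the opposite strand, so they read there as CGTGG and ATTGG. The windows of Pdia3, Pdia4, Dnajb9 and Xbp1 held none of these 3 letter strings, and the core TGACGTGG was in none of the 10, against 222 of 32851 windows in all (0.676%). Among the other gene lists used below, ERSE was in the windows of Creld2, Dnajc3 and Ero1b (3 of 37 other chaperones and foldases) and of Derl3 and Syvn1 (2 of 20 genes of degradation). It was in 0 of 17 sensors and transcription factors and in 0 of 19 translocon genes.

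Each value is a deposited signal intensity on a linear scale, and differences are given on the scale log2(signal + 16), tested with limma on all 37 arrays. A gene was called at a Benjamini-Hochberg adjusted p under 0.05 over the 9295 genes tested, and all 10 members were among them. Errors after ± are standard errors of the limma fit that gave the value. The labels name no batch, but the animal numbers fall into runs, here cut every 24 numbers into run 1 (8 mice), run 2 (11), run 3 (10) and run 4 (8). Each run held all 4 groups, and the numbers within a run go up from AL through AL+EX and CR to CR+EX, so place in the run and group cannot be told apart. The adipocyte marker mean was 11.94 to 13.92 on the log2 scale over the arrays and the luminal epithelial mean 8.06 to 10.75, the skeletal muscle mean was 13.26 to 15.23 on the log2 scale, and the mean of 9 B lymphocyte markers split the arrays into 22 low ones (6.23 to 7.08) and 15 high ones (7.70 to 9.86), among them all 8 of run 4. The Gapdh 3′ to 5′ control ratio was above 2 on 5 arrays.

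None of the 10 members passed the threshold for diet or for wheel in limma. In restricted against unrestricted mice 0 of 10 were called, where 813 of 9295 genes were (8.75%), and 0 of 10 reached an unadjusted p under 0.05, where 2224 genes did. The members' median difference was 0.10, against -0.02 over all genes tested, and 8 of 10 lay above 0. Their differences ran from -0.11 for Pdia4 to 0.23 for Pdia3, and each 95% interval included 0, the narrowest being that of Calr (-0.03 to 0.23) and the widest those of Pdia4 (-0.47 to 0.24) and Pdia3 (-0.12 to 0.58). In glands, fewer cells of a type and less RNA per cell cannot be told apart.

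Hspa5 encodes BiP, the Hsp70 chaperone of the endoplasmic reticulum and the usual marker of the unfolded protein response. Its lowest, median and highest signals were 2248.9, 2905.5 and 3564.4 in CR+EX glands, 2468.8, 2647.0 and 3372.6 in CR glands, 1969.2, 2644.8 and 4207.2 in AL+EX glands, and 2495.8, 3333.5 and 4304.9 in AL glands. AL mice had the highest median and all 4 groups overlapped. The difference of Hspa5 was -0.25 ± 0.12 in CR minus AL (95% interval -0.49 to -0.01) and -0.27 ± 0.12 in AL+EX minus AL (95% interval -0.51 to -0.03). Neither passed the threshold (limma adjusted p 0.32 and 0.75), and both comparisons share the 10 AL arrays. The averaged differences were -0.10 ± 0.09 for restriction and -0.12 ± 0.09 for the wheel, and the interaction was 0.30 ± 0.17 (limma adjusted p 1.00, unadjusted p 0.088). Its second probe set, 1427464_s_at, lay on the other side of 0 in these contrasts, at 0.19 ± 0.13 in CR minus AL, 0.18 ± 0.13 in AL+EX minus AL, -0.28 ± 0.19 in the interaction, 0.05 ± 0.09 for restriction and 0.04 ± 0.09 for the wheel, so the direction of Hspa5 depended on the probe set.

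Hsp90b1 encodes GRP94, the Hsp90 chaperone of the same compartment. It had lowest, median and highest signals of 1047.4, 1084.6 and 1732.0 in CR+EX glands, 930.4, 1244.3 and 1730.2 in CR glands, 964.9, 1087.4 and 1440.2 in AL+EX glands, and 987.0, 1128.4 and 1592.2 in AL glands. The groups overlapped nearly throughout, with the highest values of every group in run 1, as the plot of single arrays shows. Restricted minus unrestricted was 0.10 ± 0.08 and wheel minus no wheel -0.01 ± 0.08.

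**Figure D1:**
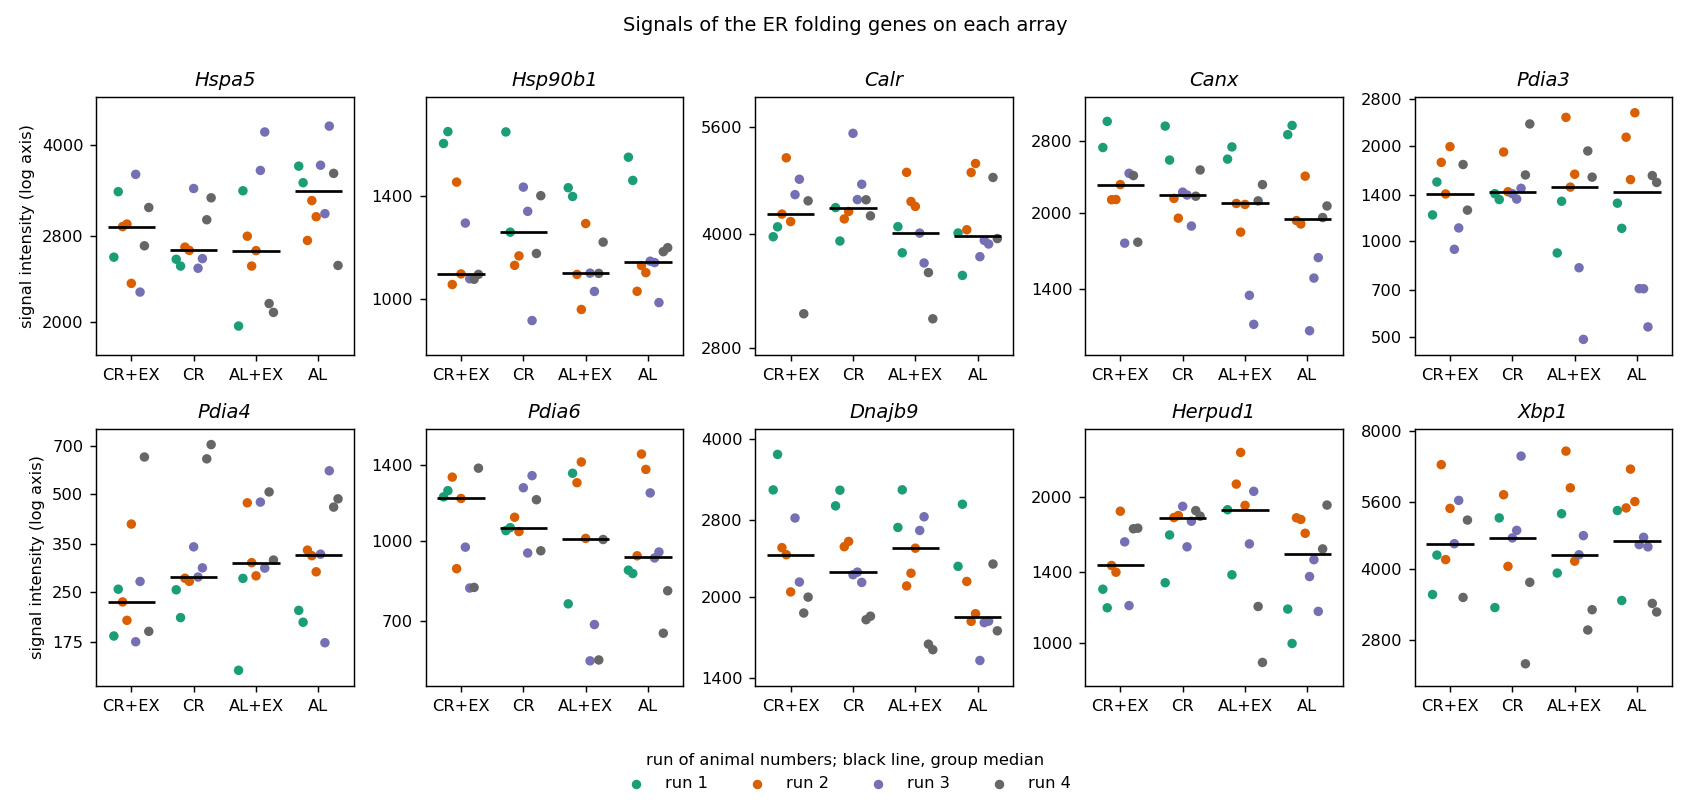
Signal intensity of each member (brightest probe set, log axis) on every array, by group, with points coloured by run of animal numbers and a black line at the group median. The groups overlap in all 10 panels, while run 1 (green) sits high for Canx, Hsp90b1 and Dnajb9 and run 3 (purple) holds the lowest AL+EX and AL values of Pdia3, 490.0 and 536.4.

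The 3 lectin cycle members had differences above 0 in restricted minus unrestricted mice and were not called. Calr had lowest, median and highest signals of 3115.3, 4257.0 and 5077.2 in CR+EX glands, 3912.3, 4344.1 and 5481.4 in CR glands, 3066.5, 4010.4 and 4851.2 in AL+EX glands, and 3513.0, 3977.3 and 4987.5 in AL glands. Canx had 1735.4, 2281.8 and 3065.2 in CR+EX glands, 1879.7, 2173.2 and 2998.7 in CR glands, 1187.4, 2088.8 and 2721.0 in AL+EX glands, and 1152.5, 1942.2 and 3008.0 in AL glands. Pdia3 had 941.9, 1407.2 and 1983.6 in CR+EX glands, 1351.5, 1430.0 and 2338.9 in CR glands, 490.0, 1478.8 and 2453.5 in AL+EX glands, and 536.4, 1423.0 and 2536.2 in AL glands. The groups overlapped for each gene, and for Canx and Pdia3 the lower end of the unrestricted groups reached below any restricted gland. Pdia3 spread widest, with a highest over lowest signal of 5.01 in AL+EX and 4.73 in AL glands, and 2.11 in CR+EX and 1.73 in CR glands. Restricted minus unrestricted was 0.10 ± 0.06 for Calr (limma adjusted p 0.36), 0.20 ± 0.11 for Canx (adjusted p 0.26) and 0.23 ± 0.17 for Pdia3 (adjusted p 0.44).

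Pdia4 and Pdia6 encode further disulfide isomerases, ERp72 and P5. Pdia4 was the dimmest used probe set of the group, with lowest, median and highest signals of 175.9, 233.0 and 647.9 in CR+EX glands, 208.6, 277.7 and 707.3 in CR glands, 143.8, 307.4 and 506.4 in AL+EX glands, and 174.7, 324.6 and 588.0 in AL glands. Pdia6 had 811.4, 1207.4 and 1381.1 in CR+EX glands, 947.8, 1060.7 and 1336.1 in CR glands, 587.3, 1006.4 and 1419.8 in AL+EX glands, and 663.9, 931.8 and 1470.5 in AL glands. Both overlapped across all groups, with the lowest Pdia6 values in unrestricted glands. Restricted minus unrestricted was -0.11 ± 0.18 for Pdia4 and 0.19 ± 0.11 for Pdia6 (limma adjusted p 0.76 and 0.30).

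Dnajb9 encodes ERdj4, a J domain partner of BiP and a target of spliced XBP1, and Herpud1 encodes a membrane protein of the degradation complex that is strongly induced by endoplasmic reticulum stress. Dnajb9 had lowest, median and highest signals of 1863.4, 2405.7 and 3731.9 in CR+EX glands, 1809.8, 2228.8 and 3190.8 in CR glands, 1586.8, 2475.0 and 3195.7 in AL+EX glands, and 1513.7, 1828.0 and 3000.5 in AL glands. AL glands had the lowest median, and the groups overlapped. The largest pairwise difference of Dnajb9 was CR+EX minus AL, 0.31 ± 0.14 (95% interval 0.02 to 0.59), a fold of 1.24, with a limma adjusted p of 0.34. Herpud1 had 1180.8, 1442.9 and 1866.1 in CR+EX glands, 1329.7, 1811.2 and 1909.7 in CR glands, 911.4, 1879.2 and 2465.4 in AL+EX glands, and 997.1, 1522.1 and 1921.4 in AL glands. Its medians were highest in the 2 groups given only one treatment, and the interaction was -0.40 ± 0.20 (95% interval -0.81 to 0.01, limma unadjusted p 0.055, adjusted p 1.00). The second Herpud1 probe set, 1448185_at, did not share that order, with medians of 1222.4 in CR+EX, 1242.7 in CR, 1344.2 in AL+EX and 1296.25 in AL glands. Its interaction was -0.27 ± 0.17. Restricted minus unrestricted was -0.18 ± 0.09 for it, against 0.03 ± 0.10 for the brighter probe set, and neither was called.

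Xbp1 encodes the transcription factor that IRE1 splices, and the array reads total transcript rather than the spliced form. Its lowest, median and highest signals were 3468.8, 4542.3 and 6755.1 in CR+EX glands, 2486.5, 4676.7 and 7050.7 in CR glands, 2945.8, 4297.4 and 7229.9 in AL+EX glands, and 3224.8, 4606.4 and 6605.9 in AL glands. The groups overlapped almost fully. Restricted minus unrestricted was 0.00 ± 0.12 (95% interval -0.24 to 0.25), and group accounted for 0.798% of its variance, the smallest share among the 10.

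In the other contrasts no member was called either. Wheel minus no wheel and the interaction called 0 of 10 members and 0 of 9295 genes (0.0%), with 0 of 10 members and 266 and 295 genes at an unadjusted p under 0.05. By the brightest probe sets the wheel contrast ran from -0.16 ± 0.18 for Pdia4 to 0.15 ± 0.10 for Dnajb9. The member median was -0.04, against -0.004 over all genes tested, and 8 of 10 lay below 0. Calr 1433806_x_at and 1456170_x_at lay lower, at -0.23 ± 0.10 and -0.23 ± 0.09, against -0.07 ± 0.06 for the brightest Calr probe set. The second probe sets of Hspa5 and Herpud1 lay above 0, at 0.04 ± 0.09 each. None of these was called. CR minus AL called 41 genes (0.441%), CR+EX minus AL+EX 153 (1.65%), CR+EX minus AL 58 (0.624%) and CR minus AL+EX 183 (1.97%), none of them a member, and AL+EX minus AL and CR+EX minus CR called 0 of 9295 in limma (0.0%), with 600 and 83 at an unadjusted p under 0.05. At that unadjusted threshold the members held Hspa5 in CR minus AL and AL+EX minus AL, and Dnajb9 in CR+EX minus AL, which is 1 of 10 in each, where 14.9%, 6.46% and 13.1% of all genes reached it. The members' medians in those 4 diet pairs were 0.13, 0.09, 0.06 and 0.09, and the member value furthest from 0 in them was that of Pdia3 in CR minus AL, 0.34 ± 0.24 (95% interval -0.15 to 0.82).

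**Figure D2:**
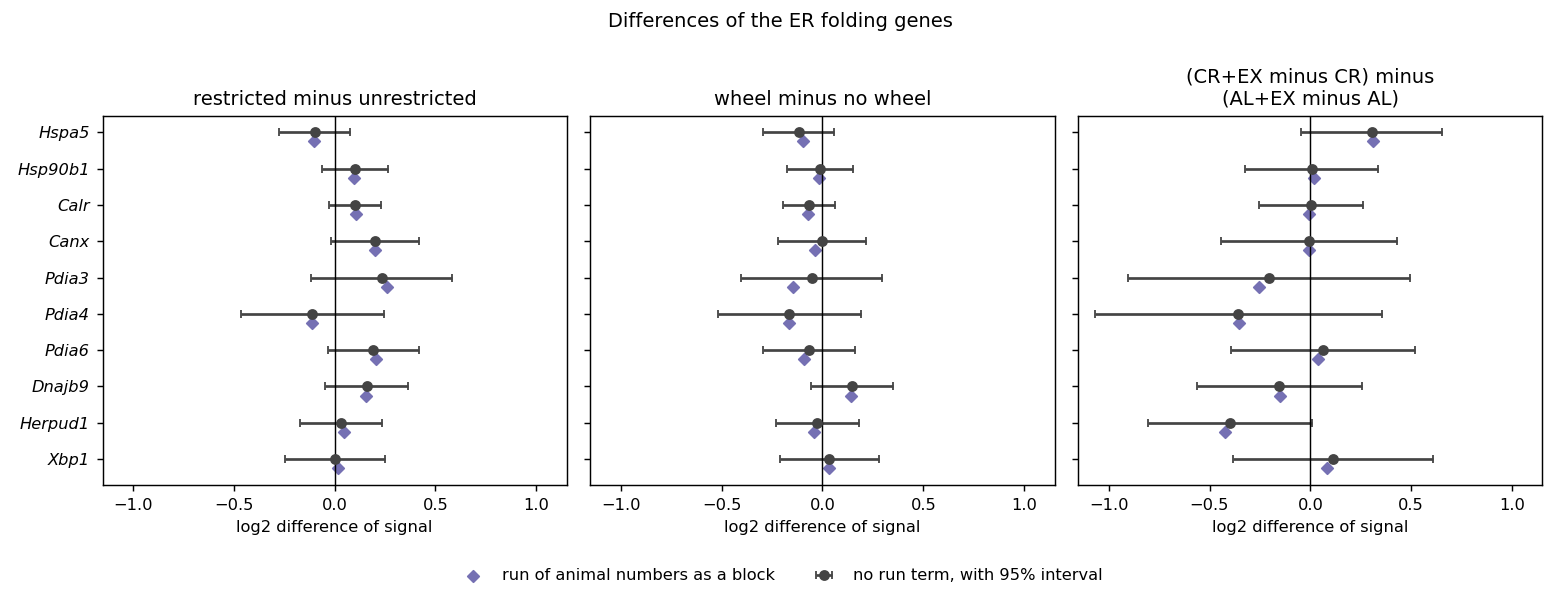
Differences on the log2(signal + 16) scale for the 10 members in 3 contrasts: circles with 95% intervals are from the fit without a run term and diamonds from the fit with run of animal numbers as a block. Every interval includes 0, and the widest belong to Pdia4 and Pdia3.

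Run of animal numbers took a larger share of the variance than group did for 9 of the 10 members, Hspa5 being the exception. Beside the group, run accounted for 60.8% of the variance of Canx, 60.5% of Pdia3, 56.3% of Dnajb9, 54.5% of Hsp90b1, 49.4% of Xbp1, 40.3% of Pdia4 and 26.1% of Herpud1. These 7 members were called by limma's F test of run (adjusted p 3.8e-06 for Canx and 0.020 for Herpud1), where 60.0% of all genes were, with a median share over all genes of 26.4%. Calr (23.1%, adjusted p 0.065), Pdia6 (20.2%, 0.062) and Hspa5 (12.5%, 0.20) did not pass the threshold. Group accounted for 0.798% to 16.8% of the members' variance, with the top value for Hspa5.

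The runs did not order the members alike. In run 1 Canx, Hsp90b1 and Dnajb9 stood at their highest mean log2 signal, 11.46, 10.59 and 11.56, while Pdia4 stood at its lowest, 7.84. In run 2 Pdia3 and Xbp1 stood highest, at 10.83 and 12.42. In run 3 Pdia3 and Canx stood lowest, at 9.83 and 10.72. In run 4 Pdia4 stood highest, at 8.89, and Xbp1 and Dnajb9 lowest, at 11.73 and 10.85. All 8 arrays of run 4 were high in B lymphocyte genes and 4 of the 8 in run 1 had a Gapdh ratio above 2, and the part of either in these values was not tested apart from the slopes given below.

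With run as a block, Canx alone passed the threshold in restricted against unrestricted mice, at 0.20 with a limma adjusted p of 0.037, where 18.8% of all genes were called. Each run was also fitted on its own arrays alone. The restricted minus unrestricted difference of Canx was then 0.02 ± 0.11 in run 1, 0.06 ± 0.09 in run 2, 0.62 ± 0.14 in run 3 and 0.04 ± 0.14 in run 4. Run 3 held nearly all of it: with run as a block and run 3 left out, the difference of Canx was 0.045. No member was called in that fit, where 358 of 9295 genes were. Pdia3 was also highest in run 3, at 0.25 ± 0.16, -0.19 ± 0.17, 0.89 ± 0.16 and 0.03 ± 0.17. Among the other members, Hspa5 had -0.15 ± 0.18, -0.07 ± 0.09, -0.43 ± 0.16 and 0.26 ± 0.15 in runs 1 to 4. Herpud1 had 0.04 ± 0.15, -0.21 ± 0.10, 0.01 ± 0.14 and 0.40 ± 0.14. For wheel minus no wheel in run 3, Pdia6 had -0.54 ± 0.15 and Dnajb9 0.43 ± 0.12, and the wheel was not tested by run.

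In run 3 the 3 members of the lectin cycle separated the diets completely. Pdia3 had 941.9 and 1099.9 in CR+EX and 1410.0, 1356.1 and 1465.8 in CR glands of run 3, against 824.0 and 490.0 in AL+EX and 708.1, 707.5 and 536.4 in AL glands. Canx had 1735.4 and 2405.0 in CR+EX and 2202.4, 2173.2 and 1879.7 in CR glands, against 1359.9 and 1187.4 in AL+EX and 1152.5, 1474.1 and 1622.0 in AL glands. Calr had 4524.1 and 4747.4 in CR+EX and 5481.4, 4454.5 and 4674.0 in CR glands, against 4010.4 and 3652.5 in AL+EX and 3725.1, 3919.9 and 3875.9 in AL glands. All 5 restricted glands lay above all 5 unrestricted ones for these 3 genes, which 4.85% of all genes tested also showed in run 3. For the other 7 members the diets overlapped in run 3, and in run 1, run 2 and run 4 they overlapped for all 10, where 2.0%, 0.484% and 3.26% of all genes had every restricted gland on top. These 3 genes and this run were singled out after their values were seen.

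The difference between runs was then tested for all genes. Restriction by run called 92 genes (0.99%) in limma's F test beside group and run, and 1 of the 10 members, Pdia3 (adjusted p 0.048). In that F test the adjusted p was 0.066 for Canx, 0.26 for Hspa5, 0.38 for Calr and 0.39 for Herpud1. The call of Pdia3 was not firm. It held in 13 of the 37 fits that left out 1 array, with adjusted p from 0.026 to 0.13, and it was 0.18 without the 5 arrays of high Gapdh ratio. In run 3 the macrophage marker mean was 9.22 to 9.99 in restricted against 8.03 to 9.09 in unrestricted glands, the luminal epithelial mean was 8.97 to 9.68 against 9.76 to 10.42, the endothelial mean 9.07 to 9.55 against 8.63 to 9.18, and the Gapdh ratio 0.823 to 1.00 against 0.842 to 2.37, and their part in these differences was not tested.

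**Figure D3:**
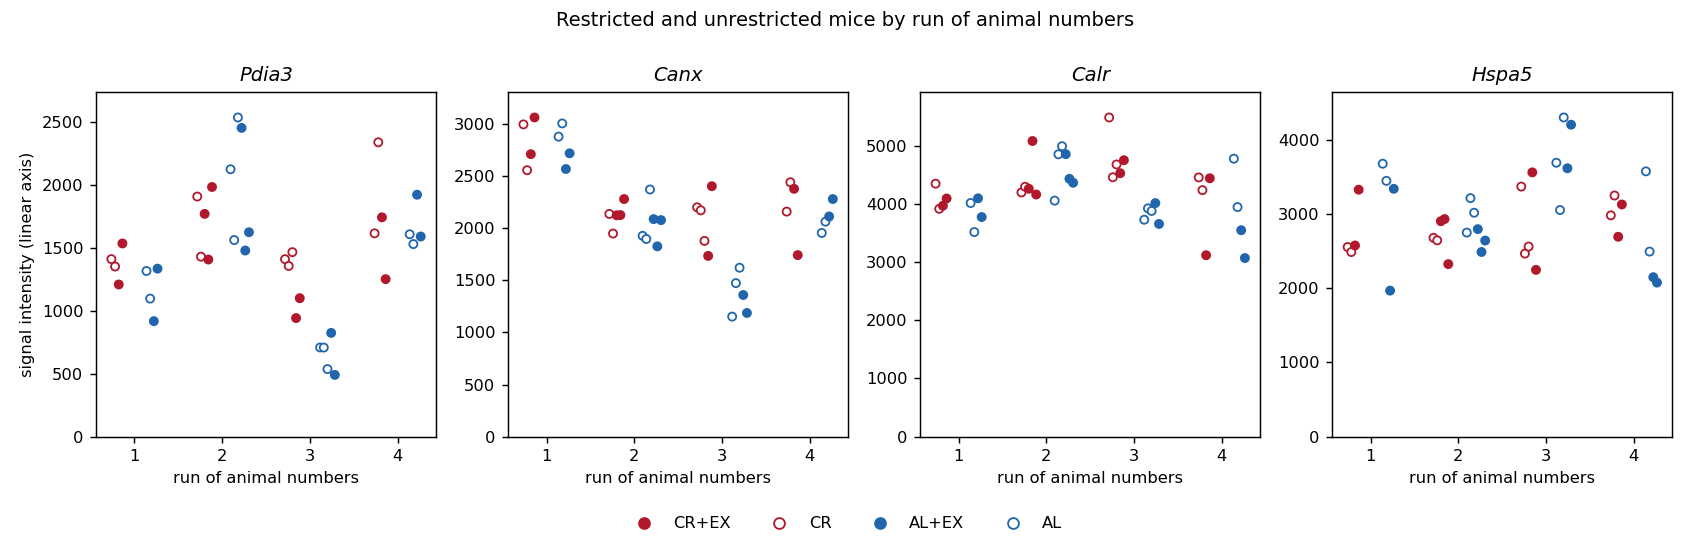
Signal intensity (linear axis from 0) of Pdia3, Canx, Calr and Hspa5 on each array by run of animal numbers, restricted glands in red to the left of unrestricted glands in blue, wheel groups filled. In run 3 all 5 red points lie above all 5 blue ones for Pdia3, Canx and Calr, and the points mix in the other runs.

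Probe sets of one gene did not always move together. All 22 were in the test of 15285 probe sets, and 0 of 22 were called in any contrast without a run term, where restriction called 7.43% of probe sets. The restricted minus unrestricted differences furthest from 0 were 0.42 ± 0.17 for Canx 1422845_at, -0.33 ± 0.14 for Xbp1 1420012_at and 0.31 ± 0.15 for Hsp90b1 1438040_a_at, with limma adjusted p of 0.12, 0.15 and 0.20. With run as a block, restriction called these 3 and the brighter Canx probe set 1415692_s_at (adjusted p 0.0079, 0.012, 0.018 and 0.040), where 17.6% of all probe sets were called. The brightest Xbp1 probe set stood at 0.02 in the same fit, against -0.35 for 1420012_at, whose median signal was 289.8. For Hspa5, Pdia4, Pdia6, Herpud1 and Xbp1 the probe sets lay on both sides of 0, so the direction of those genes was not settled. Some of these values were small beside their errors, as for Pdia4 (-0.11 ± 0.18 and 0.05 ± 0.13). Pdia6 had 0.19 ± 0.11 and -0.05 ± 0.13. The second probe sets of Pdia4 and Pdia6 were dim, with median signals of 86.1 and 129.1.

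**Figure D4:**
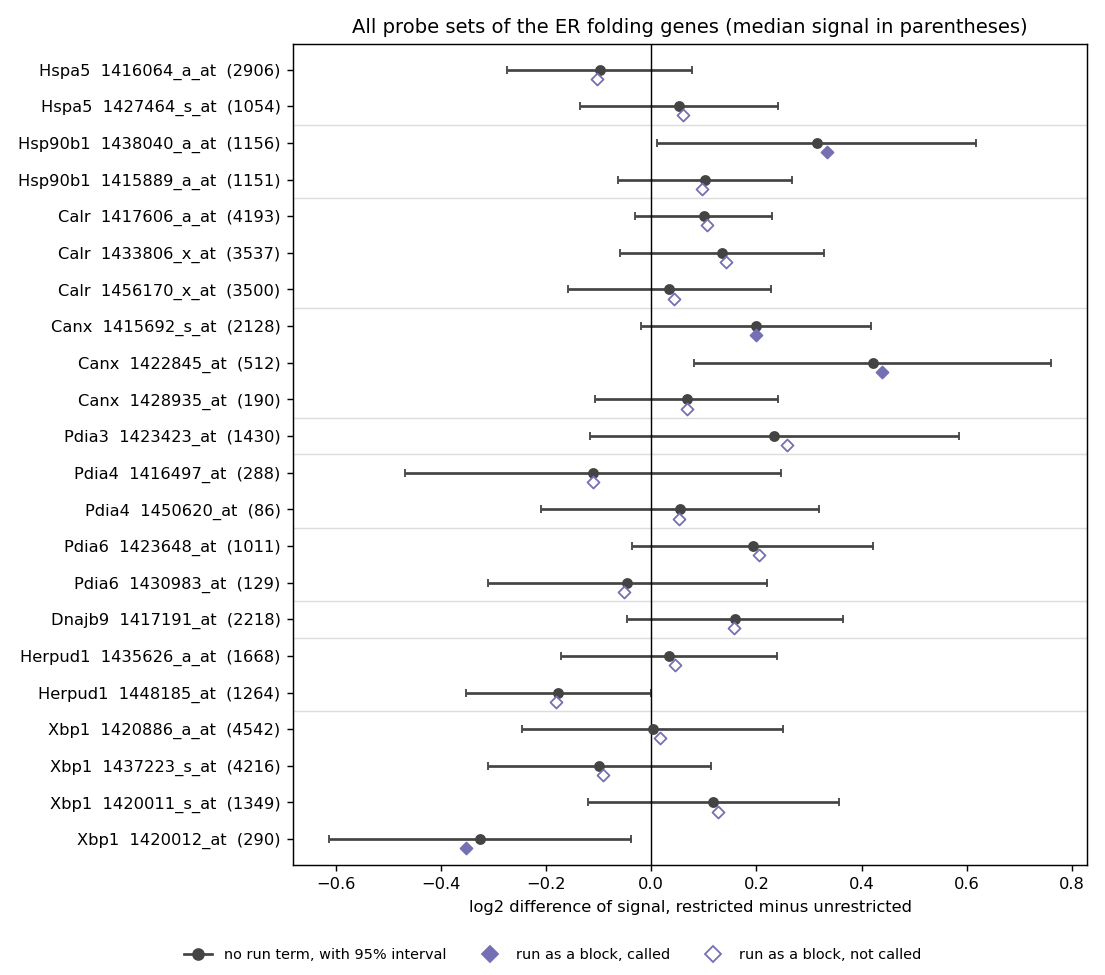
Restricted minus unrestricted difference on the log2(signal + 16) scale for all 22 probe sets of the members, grouped by gene from bright to dim, with median signal in parentheses. Circles carry 95% intervals without a run term and diamonds come from the fit with run as a block, filled where called: 2 of 3 probe sets of Canx, 1 of 2 of Hsp90b1 and 1 of 4 of Xbp1.

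Probe sets of one gene were also compared across arrays, as deviations from group and run means, over 17 pairs in each set of arrays. The 2 brighter Canx probe sets had r = 0.83 and rho = 0.81 in the 22 arrays low in B lymphocyte genes (permutation test adjusted over the 17 pairs, p 0.00085) and r = 0.67 and rho = 0.55 in the 15 high ones (adjusted permutation p 0.021). In the low arrays this pair was also called without the 2 arrays farthest from the median (r = 0.63, adjusted permutation p 0.026) and on deviations from group means alone (r = 0.56, 0.022). In the high arrays it was called in neither (r = 0.69 and 0.54, adjusted permutation p 0.052 and 0.12). The 2 probe sets of Pdia4 had r = -0.78 and rho = -0.74 in the high arrays (adjusted permutation p 0.0057), and -0.90 without the 2 farthest arrays (0.0017). On deviations from group means alone the r of Pdia4 was -0.34 and not called (adjusted permutation p 0.35). The 2 probe sets of Pdia6 had r = -0.66 and rho = -0.52 in the high arrays (adjusted permutation p 0.021), with -0.68 without the 2 farthest arrays and -0.62 on group means alone, neither called (0.052 and 0.081). In the low arrays the pairs of Pdia4 and Pdia6 had r = -0.20 and -0.12. The second probe set of each of these genes was dim, as given above, and the part of this in r was not tested. In all, 3 of 17 pairs were called in the low arrays and 6 in the high ones, with 5 and 2 on group means alone and 2 and 2 without the 2 farthest arrays. The permutations shuffled all deviations freely, although the fitted group and run means leave fewer free values than arrays. Their p-values are therefore likely too small, most so in the 15 high arrays, and the count of 6 there may be too high.

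Correlations between members varied in sign and size, and no values for pairs of other genes are given beside them. Over the 45 pairs of members, deviations from group and run means had a median r of 0.12 over 37 arrays, from -0.48 for Hsp90b1 with Xbp1 to 0.68 for Canx with Pdia3, and 28 pairs were above 0. For Canx, Pdia3 ranked 1 by r among the genes tested, and for Pdia3, Canx ranked 8. The diet difference that both genes had in run 3 stays in deviations from group and run means. Their r is therefore not separate from that difference, whose part in it was not tested. The r of all pairs are descriptions, because all members share the same arrays and the arrays differ in lymphocyte content. Within the 22 low arrays, Canx and Pdia3 had r = 0.59 and rho = 0.41 as deviations from group means (permutation p 0.0041 and 0.061), and r = 0.78 with run removed too. Without the 2 arrays farthest from the median of Canx, r on group means was 0.26 (permutation p 0.27), so that relation rested on those arrays. The r with run removed was not computed without them. In the 15 high arrays r on group means was 0.34 and rho 0.10 (permutation p 0.22 and 0.73). This pair was chosen after its values were seen.

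Against Hspa5, 9 relations were tested in each set of arrays. In the low arrays none passed the adjustment over 9: Dnajb9 had r = 0.44, Hsp90b1 0.43 and Pdia3 -0.49, each with an adjusted permutation p of 0.14 (rho 0.48, 0.51 and -0.37, with adjusted p of 0.12, 0.12 and 0.21). Without the 2 arrays farthest from the median of Hspa5, Hsp90b1 was called, at r = 0.60 and rho = 0.63 (adjusted permutation p 0.048 and 0.036). In the high arrays Canx was called by r, at -0.71 with an adjusted permutation p of 0.026, but not by rho, at -0.61 with 0.17. It was no longer called with run removed (r = -0.52, adjusted permutation p 0.17) or without the 2 arrays farthest from the median of Hspa5 (r = -0.65, adjusted permutation p 0.14).

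The 10 genes whose deviations from group and run means were most like those of Hspa5 over 37 arrays were Eif4h (r = 0.703), Mrpl24, Fam117b, Mark3, Eci2, Tgm2, Nbr1, Eif3i, Srp9 and Cdc123 (r = 0.659). The nearest member was Dnajb9, at rank 162 among the genes tested, with r = 0.478. For Xbp1 the 5 most alike were Rhbdf1 (r = 0.791), Lmbrd1, Spint2, Rras and Ap3b1 (r = 0.697). The nearest member to Xbp1 was Pdia6, with r = 0.449.

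Few members moved with the cell type markers fitted. Slopes of each gene on 6 marker means were fitted beside group and run. No slopes were fitted on the macrophage, endothelial, T lymphocyte, basal epithelial or milk protein means. Dnajb9 had a slope of -0.39 ± 0.10 on the adipocyte mean (limma adjusted p 0.012), where 11.3% of all genes were called, and Pdia6 a slope of 0.42 ± 0.10 on the fibroblast mean (adjusted p 0.014), where 2.1% were. No member was called on the means of B lymphocytes, plasma cells, luminal epithelium or skeletal muscle, where 6.11%, 4.34%, 4.46% and 2.55% of all genes were. By group the adipocyte mean was 12.21 to 13.37 in CR+EX, 11.94 to 13.52 in CR, 12.44 to 13.21 in AL+EX and 12.62 to 13.92 in AL glands, and the fibroblast mean is given by group below.

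The rest of the pathway was read from 4 lists, chosen with earlier results of these data known. Of 41 tested other chaperones and foldases, 3 were higher and 0 lower in restricted glands (7.32%), close to the 8.75% of all genes called, with a list median of 0.04 against -0.02 over all genes. They were Gpx8, a peroxidase of the endoplasmic reticulum membrane, at 0.84 ± 0.10 (limma adjusted p 1.9e-06), Serpinh1, the collagen chaperone HSP47, at 0.91 ± 0.23 (adjusted p 0.011) and Fkbp2, a prolyl isomerase, at 0.32 ± 0.09 (adjusted p 0.028). Gpx8 had lowest, median and highest signals of 1383.6, 1878.3 and 2653.6 in CR+EX glands and 1356.3, 2154.1 and 2635.3 in CR glands, against 619.4, 1123.6 and 1547.0 in AL+EX glands and 864.2, 995.5 and 1784.9 in AL glands. Restricted and unrestricted glands overlapped only between 1356.3 and 1784.9, and Gpx8 was higher in each of the 4 pairs of a restricted with an unrestricted group. Serpinh1 had 945.6, 1701.0 and 2443.0 in CR+EX glands and 1531.5, 2020.1 and 2539.9 in CR glands, against 217.7, 1105.6 and 1695.9 in AL+EX glands and 193.9, 1114.1 and 2266.7 in AL glands. Its second probe set had 0.21 ± 0.10 and an adjusted p of 0.19.

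Gpx8 passed under each of the 18 other settings tried, from 0.77 to 0.91. Without run 3 Serpinh1 fell short at 0.51 and Fkbp2 at 0.21, and neither passed when the 15 high B lymphocyte arrays were left out. The fibroblast marker mean was 10.34 to 11.38 in CR+EX and 10.24 to 11.81 in CR glands, against 9.37 to 11.40 in AL+EX and 9.79 to 11.19 in AL glands, and its part in these 3 genes was not tested.

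Of 24 tested genes of degradation, 2 were lower and 0 higher in restricted glands (8.33%, against 8.75% of all genes), with a list median of -0.06. Ubxn4, a membrane protein that tethers the segregase p97, had -0.56 ± 0.10 (limma adjusted p 0.00040), and its 3 probe sets had -0.56, -0.48 and -0.40. Its lowest, median and highest signals were 483.5, 778.3 and 1305.2 in CR+EX glands and 533.0, 846.7 and 901.6 in CR glands, against 953.8, 1230.1 and 1482.1 in AL+EX glands and 981.5, 1040.7 and 1658.2 in AL glands. Every CR gland lay below every unrestricted one, and CR+EX glands overlapped the unrestricted ones. Ubxn4 was named because it was called, and the share of all genes that separated in this way was not worked out. Ubxn4 passed under each of the 18 other settings, from -0.66 to -0.46. Selenos, a selenoprotein that recruits p97 to the membrane, had -0.21 ± 0.06 (adjusted p 0.035), and passed under 11 of 18 other settings and 30 of 37 fits without 1 array.

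Of 26 tested genes of the translocon, signal peptidase and oligosaccharyltransferase, 1 was higher and 0 lower (3.85%, against 8.75% of all genes), with a list median of 0.01. Ssr4, a subunit of the translocon associated complex, had 0.41 ± 0.10 (limma adjusted p 0.010), but its 2 dimmer probe sets had -0.17 ± 0.19 and -0.06 ± 0.17, and without run 3 its value was 0.24 and not called. Of 17 tested sensors and transcription factors 0 were called by limma (2 at an unadjusted p under 0.05), with a list median of -0.03. The smallest p belonged to Ppp1r15a, the GADD34 phosphatase subunit, at -0.32 ± 0.13 (adjusted p 0.12). In the wheel contrast and the interaction none of the 4 lists had a called gene. The smallest p of each list in the wheel contrast belonged to Creld2 (-0.22 ± 0.10), Chac1 (0.32 ± 0.16), Edem1 (-0.16 ± 0.09) and Sec61b (-0.12 ± 0.06). In the interaction it belonged to Sil1 (0.33 ± 0.19), Atf6 (0.26 ± 0.13), Edem1 (0.54 ± 0.18) and Ssr3 (0.29 ± 0.13), and all 8 had a limma adjusted p of 1.00.

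**Figure D5:**
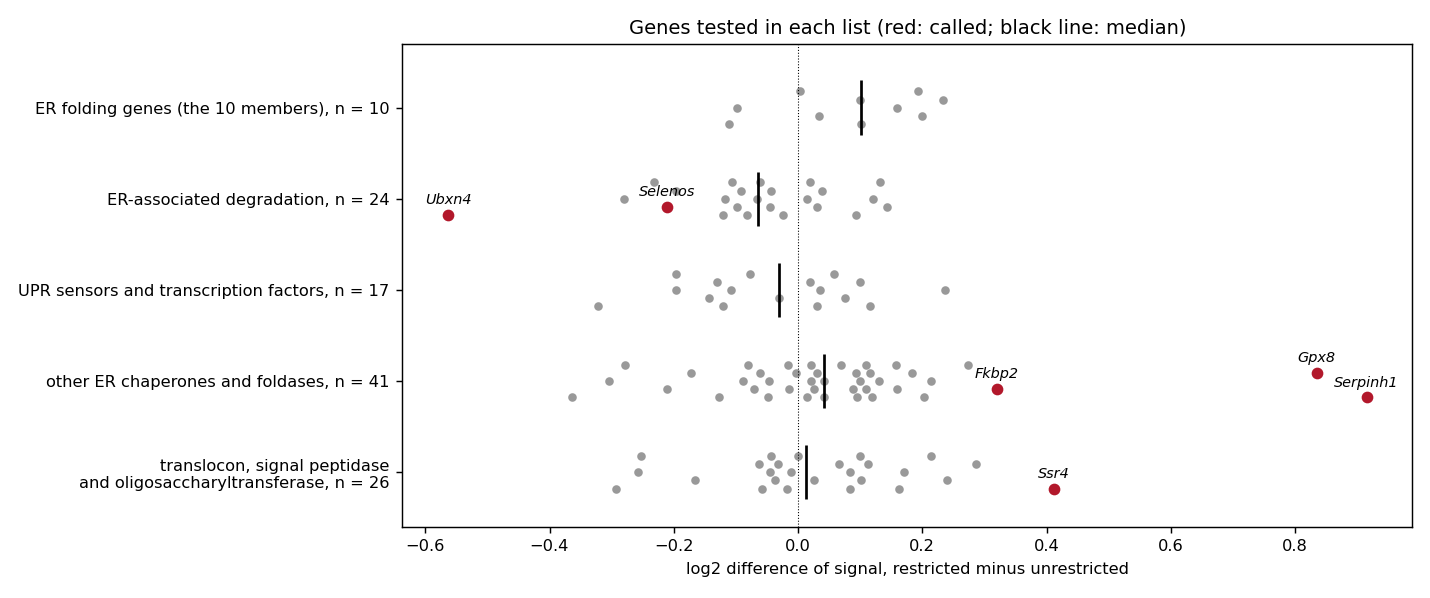
Restricted minus unrestricted difference on the log2(signal + 16) scale of every tested gene in the 10 members and the 4 lists, with genes called at an adjusted p under 0.05 in red and the list median as a black line. The 10 members lie between -0.11 and 0.23 with none called, and Serpinh1 at 0.91, Gpx8 at 0.84 and Ubxn4 at -0.56 lie furthest out.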

How the data were processed

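The authors deposited Affymetrix signal intensity values, linear and not logged. GCOS version 1 is the tool named in the submitters' processing notes, and its settings were not stated there. On every array the mean after trimming 2% at each end was 500.2, so no scaling was added. Signals were used as log2(signal + 16). Of 22690 probe sets, 20380 name 1 gene in the platform table, 691 several, 1555 none and 64 are controls. Each gene was read from its brightest probe set (mean of 37 arrays), and the 25% of genes with the lowest mean were left out (below 6.71 on the log2 scale).

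Group means were fitted to 37 arrays with limma 3.58.1 in R 4.3.3, with a variance trend and 33 residual degrees of freedom. Each of the 9 two-sided contrasts had its own Benjamini-Hochberg adjustment. Residual SDs had a median of 0.339 (log2). Arrays hold no counts, so the number of arrays limits the precision. Each mouse had 1 array, so p-values measure the spread between mice. In fits without a run term that spread includes the differences between runs of animal numbers. The code was tested on simulated data. Correlations used 100000 permutations, and pairs of probe sets 20000. The permutations took no account of the group or run means removed beforehand, so their p-values are likely too small. The named genes were all members, up to 4 called genes of each list (otherwise the smallest p) in the averaged diet, wheel and interaction contrasts, and the genes most like Hspa5 and Xbp1. Members and lists were chosen with earlier results of these data known. The run block of the gene fit was planned. The marker slopes, the F tests of run, the overlap within runs, the block without run 3, the probe sets with a run block and the other settings of the probe set pairs were chosen after seeing the data. Alternatives covered the pseudocount, filter, scaling, probe set, variance prior, array weights, run, B lymphocyte genes, Gapdh ratio and single arrays.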

Additional observations from a re-analysis of the deposited data

Results flagged for a closer look

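Of 40 groups of 9 or 10 arrays (10 genes in 4 groups), 2 held an array far from the others, and chance marks about 1 group in 20. Pdia4 was at 143.8 in AL+EX replicate 1, where the next lowest AL+EX gland had 275.1, and this array was of run 1, in which Pdia4 was lowest, and high in B lymphocyte genes. Calr was at 3115.3 in CR+EX replicate 8, where the next lowest CR+EX gland had 3965, and this array was of run 4 and high in B lymphocyte genes. The restricted minus unrestricted difference of Pdia3 differed between runs of animal numbers, with an adjusted p of 0.0476 in limma's F test and within-run values of 0.25, -0.19, 0.89 and 0.03 for runs 1 to 4.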

How the results depend on the processing

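No paired analysis was possible because the replicate numbers only name arrays in accession order. The count of members called was 0 in all 9 contrasts under every setting except run as a block, which called 1 (Canx) in restricted against unrestricted mice, and 0 when run 3 was left out of that fit. Probe sets of members called over 9 contrasts were 9 with that block and 0 without. Among the 9 were the restriction calls given above, where 17.6% of all probe sets were called. Also among them were Canx 1422845_at and Hsp90b1 1438040_a_at in CR minus AL (limma adjusted p 0.019 and 0.020), where 996 of 15285 probe sets were called. Relations with Hspa5 called numbered 1 in place of 0 among low arrays without the 2 farthest arrays, and 0 in place of 1 among high arrays, both with run removed and without 2 arrays. Of 360 member differences in the averaged contrasts under 18 other settings, 326 kept sign and side, 1 passed the threshold (Canx) and 33 turned sign, none of the 33 called on either side, and the cause was not tested. For restriction these were Hspa5 without run 3 (0.00563, and 0.00425 with the block), Pdia3 without run 3 (-0.00245), Pdia6 without the high B lymphocyte arrays (-0.0507), Xbp1 with quantile normalization (-0.079), mean of probe sets (-0.0759), array weights (-0.0474), the B lymphocyte covariate (-0.0755), without the high arrays (-0.0515), without run 3 (-0.0891, and -0.0641 with the block) and without run 4 (-0.0355), and Herpud1 with the mean of probe sets (-0.0715), array weights (-0.0665), without the high arrays (-0.0558), without the arrays of high Gapdh ratio (-0.0154) and without run 4 (-0.0764). For the wheel they were Hsp90b1 with array weights (0.0345) and without run 4 (0.0251), Pdia3 (0.0345), Pdia4 (0.108) and Calr (0.014) without the high arrays, Pdia6 without run 3 (0.0831, and 0.0694 with the block), Canx with array weights (0.0291), without the high Gapdh arrays (0.0122), without run 1 (0.00219) and without run 4 (0.00469), Xbp1 without run 4 (-0.00084), and Herpud1 with the mean of probe sets (0.00526), array weights (0.0203), without the high arrays (0.0977) and without run 4 (0.082). Leaving out 1 array kept sign and side in 692 of 740 values, and restriction then ran from -0.0401 to 0.0535 for Xbp1 and -0.0194 to 0.0694 for Herpud1, and the wheel from -0.0408 to 0.0163 for Hsp90b1, -0.118 to 0.0318 for Pdia3, -0.043 to 0.044 for Canx, -0.0163 to 0.0773 for Xbp1 and -0.0606 to 0.0281 for Herpud1. The background moved with run too: restriction called 813 genes in all, 1743 with run as a block, 497 without the high arrays and 69 without run 3 (358 with the block), and CR minus AL called 41, 573 with the block and 0 without run 3. Calls of the other lists changed with run 3 as given beside them, and with run as a block the other chaperones and foldases held 3 higher and 4 lower genes (17.1%), the sensors 1 lower (5.88%), degradation 4 lower (16.7%) and the translocon list 4 higher and 3 lower (26.9%), where 18.8% of all genes were called.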
